A study of Mus musculus with 42 samples.

Results

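The Hox genes of wild-type and Tug1-/- mice were compared in 7 tissues. The 38 genes described here are those of the deposited table whose symbols consist of Hoxa, Hoxb, Hoxc or Hoxd and a number, out of 26653 genes. They were chosen by symbol, and no measured value entered the choice. Of the 38 genes, 11 belong to the Hoxa cluster, 10 to Hoxb, 9 to Hoxc and 8 to Hoxd. Hoxd4 is an annotated gene but has no values here, so the counts and sums of Hoxd leave it out.

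Tug1 is a long noncoding RNA (lncRNA), and the knockout strain Tug1_tm1.1Vlcg has both Tug1 alleles replaced by a lacZ reporter, while its wild-type controls keep the normal alleles without lacZ. The animals and embryos of both genotypes were male, on a C57BL/6J background (N3-C57BL/6J, no Neo), and no treatment is named. Poly-A RNA was sequenced from 42 samples, of which 22 were wild-type and 20 Tug1-/-. There were 4 wild-type and 3 Tug1-/- samples of testes and 3 and 2 of prostate, while spleen, heart, liver, eyes and mouse embryonic fibroblasts (MEFs) had 3 and 3. The MEFs were primary cultures of passage 2, 1 per embryo, from littermate embryos. The other tissues came from adult animals, whose ages are not given in the sources used here. A limit of the knockout is that the Tug1 promoter and first exon remain and drive the reporter, so that the deletion of the locus and the expression of lacZ cannot be told apart.

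Every value below is the authors' pooled value of a genotype in a tissue, in FPKM, a level scaled by transcript length and library size. The table holds no value per sample, so no spread between replicates, no sample that stands apart and no depth could be examined, and no difference below was tested. Tug1 had between 11.2 and 27.7 FPKM in the wild-type tissues and between 0.00753 and 0.402 FPKM in the knockout tissues. The tissues carried their own defining markers. Summed in wild-type samples, 7 fibroblast genes reached 3979 FPKM in MEFs, 4 spermatid genes 38923 FPKM in testes, 4 cardiac muscle genes 11132 FPKM in heart, 3 B and T cell genes 779 FPKM in spleen, and 3 photoreceptor genes 5546 FPKM in eyes. In prostate, 3 of 4 prostate genes were at level with a sum of 25514 FPKM, and in liver 3 of 4 hepatocyte genes with 28565 FPKM; the remaining gene of each list was listed at 0 in both genotypes. In bulk RNA, fewer cells of a type and less RNA per cell cannot be told apart.

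Hox genes encode transcription factors that give cells their position along the head-to-tail axis of the embryo and along the limbs. They lie in clusters in which the paralog number follows the order of the genes on the chromosome, and genes with low numbers are used in anterior and genes with high numbers in posterior parts of the body. Genes with the same number in different clusters are paralogs. Many adult cells keep part of the pattern: cultured fibroblasts retain the Hox code of the site from which they came, and the prostate, which develops in the posterior trunk, is known for the use of posterior Hox genes, Hoxb13 above all. In the text, anterior, central and posterior stand for the numbers 1 to 3, 4 to 8 and 9 to 13. These classes were set after the values had been seen.

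All 38 genes encode a homeodomain, a DNA-binding domain of 60 residues, and in each gene its 180 coding bases (the homeobox) lie in 1 exon. The following 30 bases are codons 44 to 53 of the homeodomain in some of the genes on which the results below turn, read from GENCODE vM21 transcripts on GRCm38. They are shown because this stretch belongs to the helix that lies in the major groove of DNA and reads its sequence. Capitals mark codons 48 to 51.
Hoxa4 (chr6:52190504-52190533, minus strand): caggtcaagatcTGGTTTCAGAACcggaga
Hoxd8 (chr2:74706654-74706683, plus strand): caggtaaaaatcTGGTTCCAGAACaggaga
Hoxa10 (chr6:52232575-52232604, minus strand): caagtgaaaatcTGGTTTCAGAATcgcagg
Hoxd10 (chr2:74694270-74694299, plus strand): caggtcaagattTGGTTTCAAAACcgccga
Hoxa13 (chr6:52258949-52258978, minus strand): caggtcacaatcTGGTTCCAGAACaggagg
The 4 marked codons had 7 spellings among the 38 genes, and the most common spelling was found in 15 of them. Along the whole homeobox, the 39 pairs of genes with the same number shared between 67.2% and 93.9% of their bases, with a median of 80.6%. The other 664 pairs shared between 46.1% and 88.9%, with a median of 60.6%.

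Hoxb13 and Hoxd13 are shown over the whole homeobox, since Hoxb13 had the highest level of any Hox gene and Hoxd13 was the Hox gene past the limit in MEFs. Capitals again mark codons 48 to 51.
Hoxb13 (chr11:96196020-96196199, plus strand): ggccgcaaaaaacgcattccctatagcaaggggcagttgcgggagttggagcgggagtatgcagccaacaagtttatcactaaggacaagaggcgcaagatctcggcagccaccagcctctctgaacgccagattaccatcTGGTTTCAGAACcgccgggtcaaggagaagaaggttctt
Hoxd13 (chr2:74669930-74670109, plus strand): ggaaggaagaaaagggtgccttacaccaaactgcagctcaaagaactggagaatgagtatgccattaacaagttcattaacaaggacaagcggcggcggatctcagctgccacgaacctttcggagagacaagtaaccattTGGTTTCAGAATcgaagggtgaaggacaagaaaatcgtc
The 2 sequences are the least alike of the same-number pairs and shared 67.2% of their bases. Reads can tell the 38 genes apart by their full transcripts. Of them, 36 shared no stretch as long as a read with another of the 38. The exceptions were Hoxc5 and Hoxc10, whose annotated exons overlap. The annotated exons of Hoxd4, which is not among the 38, overlap 388 exonic bases of Hoxd3 on the same strand. The part of Hoxd4 in the values of Hoxd3 was not tested.

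On GRCm38, the Hoxa genes lie on the minus strand at chr6:52155590-52260880. The Hoxb genes lie on the plus strand at chr11:96194316-96368256, on the chromosome that also carries Tug1. The Hoxc genes lie on the plus strand at chr15:102921103-103036852 and the Hoxd genes on the plus strand at chr2:74668310-74765142. The exons of 15 Hox genes overlap another annotated gene, 9 of them a gene on the opposite strand. The library kit does not mark the strand, so the reads of such a pair cannot be told apart by strand. The table also joins neighbouring genes into loci, within which Cuffdiff divides the reads among overlapping transcripts by estimation, and 19 of the 38 genes share a locus with another Hox gene.

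**Figure D1:**
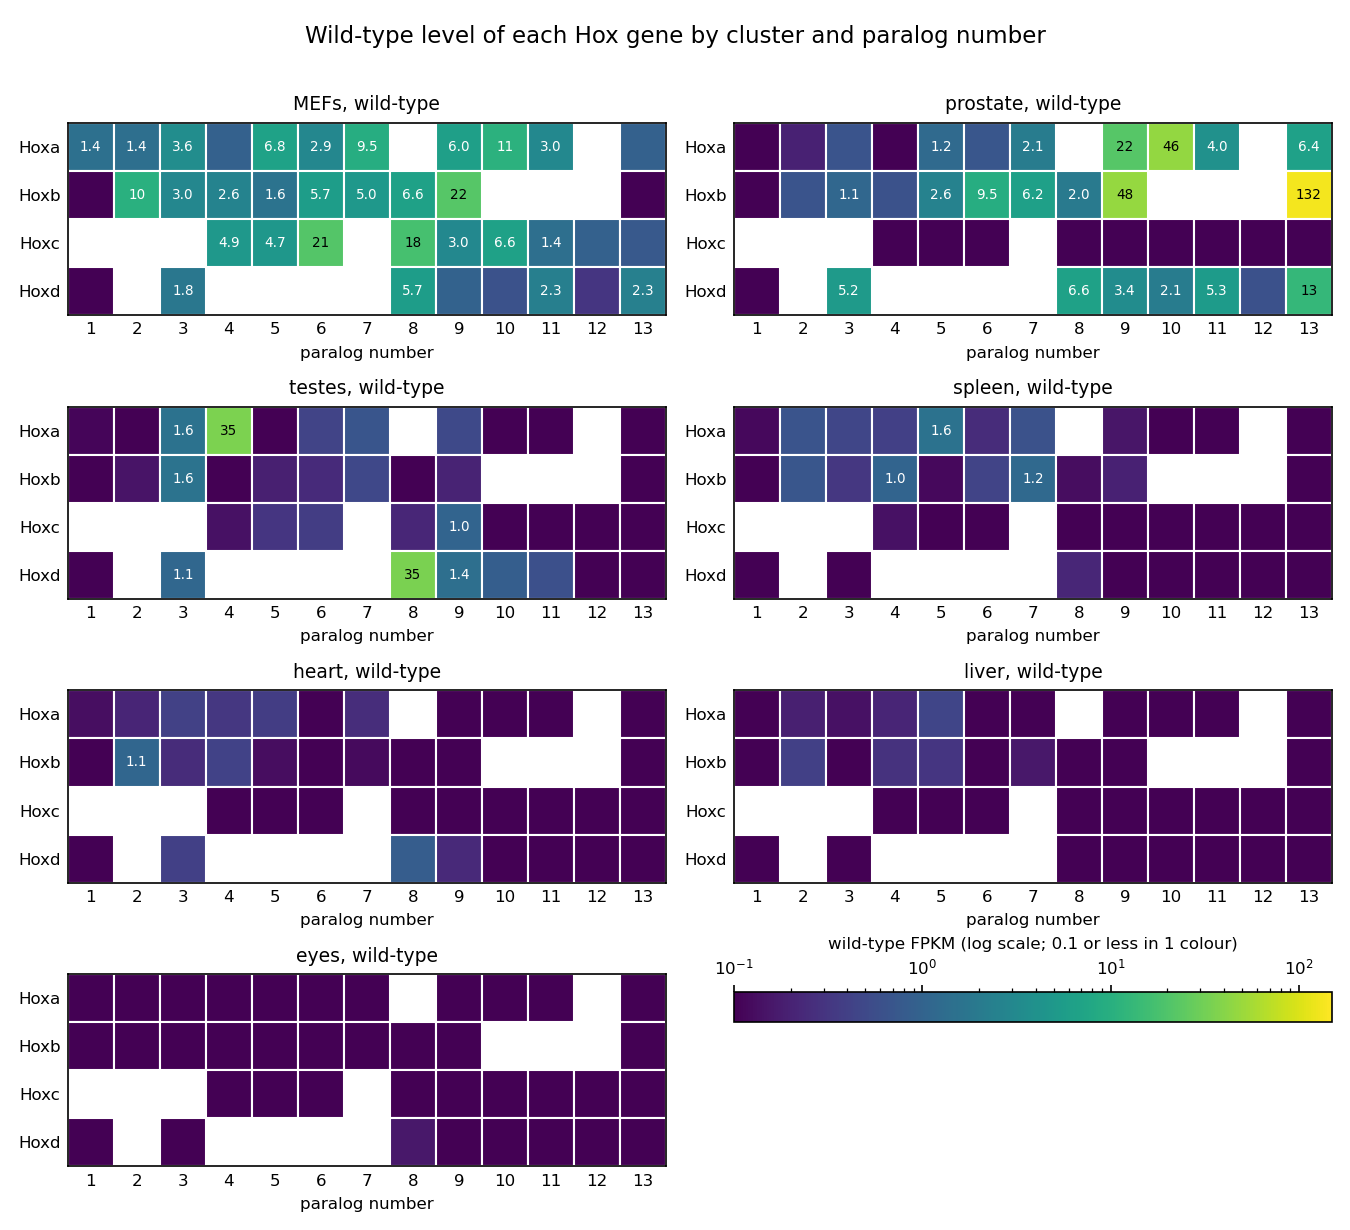
Wild-type level of each Hox gene in 7 tissues, with the cluster in rows, the paralog number in columns and FPKM as colour on a log scale. Levels of at least 1 FPKM are printed, and blank positions hold no gene of the list. MEFs filled most positions, prostate had its highest levels at high numbers of Hoxa, Hoxb and Hoxd, and testes had high levels at Hoxa4 and Hoxd8.

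The summed level of the Hox genes spanned a wider range over the tissues than between the genotypes of a tissue. Counted by a mean of both genotypes of at least 1 FPKM, 29 of the 38 genes reached this level in MEFs, 20 in prostate, 7 in testes, 3 in spleen, 1 in heart and 0 in liver and eyes. Of all genes, 43.5% reached it in MEFs, 45.6% in prostate and 56.8% in testes, against 76.3%, 52.6% and 18.4% of the Hox genes. The summed Hox level was 322 FPKM in wild-type and 290 FPKM in knockout prostate, 179 and 175 FPKM in MEFs, and 82.6 and 82.9 FPKM in testes. It was 8.93 and 8.09 FPKM in spleen, 5.65 and 4.18 FPKM in heart, 2.56 and 2.67 FPKM in liver, and 0.426 and 0.497 FPKM in eyes. All genes together summed to between 378014 and 1124495 FPKM per group, so levels are set across tissues as a description.

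Of the 38 genes, 5 reached 1 FPKM in no tissue, namely Hoxb1, Hoxd1, Hoxd12, Hoxc12 and Hoxc13. A further 12 reached it in 1 tissue, 15 in 2 and 6 in 3. In MEFs alone it was reached by 10 genes, of which 7 were Hoxc genes, and in prostate alone by Hoxa13 and Hoxb13. Hoxb3, Hoxd3 and Hoxd8 reached it in MEFs, prostate and testes. Of the 532 values of the Hox genes, 121 were listed at 0. By the status given with the values, 105 rows of a Hox gene in a tissue were OK and 161 not tested. The status of a failed estimate was given to 0 of these rows. The order of the 38 genes by level was nearly the same in both genotypes, with a Spearman correlation across genes of 0.98 in MEFs, 0.99 in prostate and 0.98 in testes. This is a description across genes, whose values come from the same libraries.

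For each gene the change was taken as log2((KO + 0.1)/(WT + 0.1)), with 0.1 FPKM as the pseudocount, which understates the change of low genes. A gene was counted as past the limit when its change was more than 1.5 times, 0.58 on the log2 scale, in either direction and its mean was at least 1 FPKM.

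**Figure D2:**
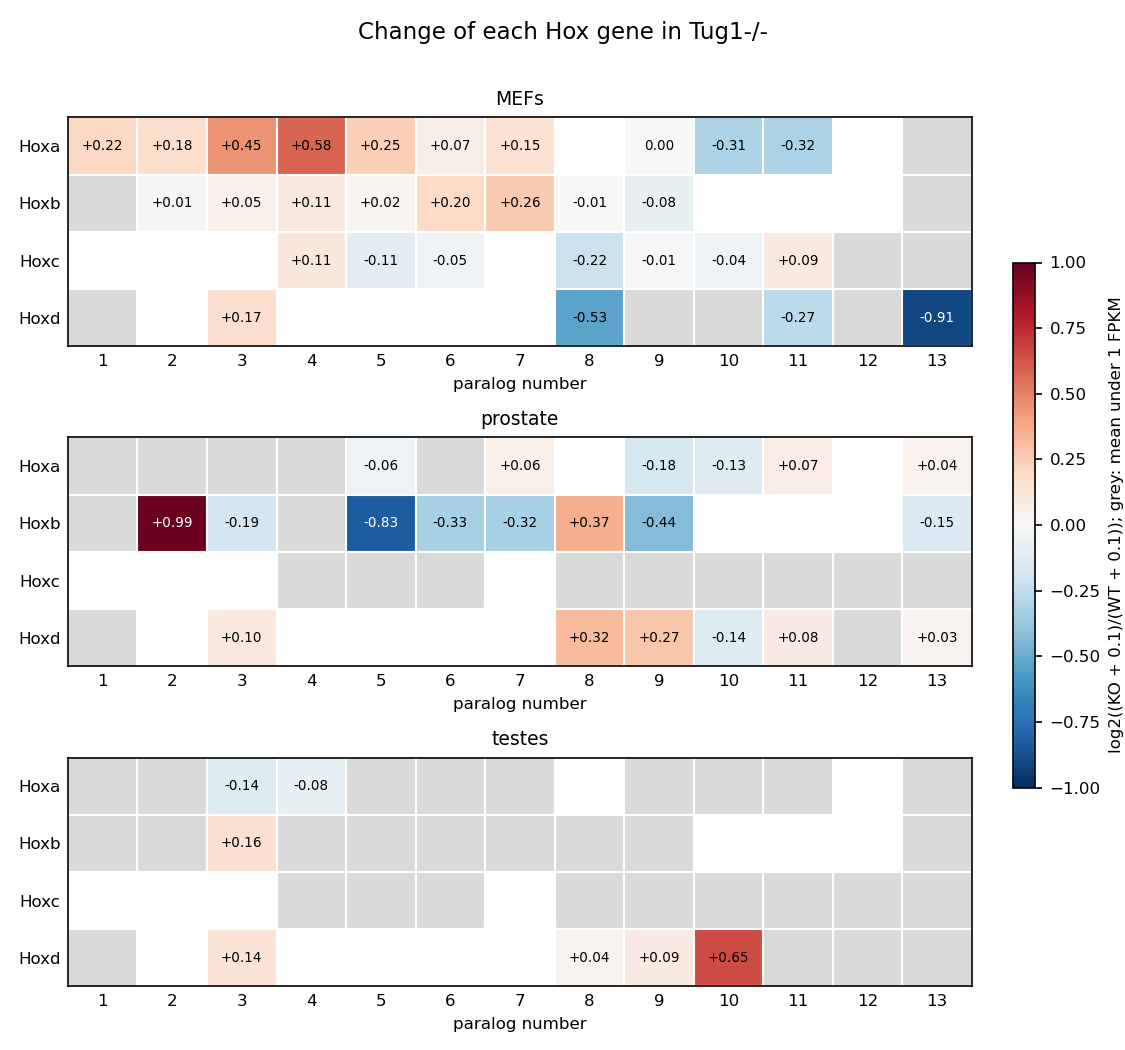
Change of each Hox gene in Tug1-/- MEFs, prostate and testes on the log2((KO + 0.1)/(WT + 0.1)) scale, with the cluster in rows and the paralog number in columns. Red is higher and blue lower in the knockout, grey marks a mean under 1 FPKM, and blank positions hold no gene of the list. The 4 values past the limit are those of Hoxd13 in MEFs, Hoxb2 and Hoxb5 in prostate and Hoxd10 in testes.

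MEFs had the broadest set of Hox genes. The highest levels were those of Hoxb9, a gene of the thoracic region, with 21.7 FPKM in the wild type against 20.6 FPKM in Tug1-/- MEFs, of Hoxc6 with 21.4 and 20.7 FPKM, and of Hoxc8 with 17.6 and 15.1 FPKM. Hoxc6 and Hoxc8 are likewise genes of the trunk. Of these, Hoxc8 had the largest change, -0.22. Of the 29 genes at level, 0 were past the limit with a higher value and 1 with a lower value in the knockout. The same limit was passed by 0.975% of all 11587 genes with a higher and by 2.2% with a lower value, so that 1 of 29 genes, or 3.45%, stood near the background. Among genes of 1 to 5 FPKM, the class of most Hox genes in MEFs, 4.96% of all genes were past the limit with a lower value.

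Hoxd13, a gene of the distal limb and the urogenital region, was the member past the limit. It had 2.32 FPKM in the wild type against 1.19 FPKM in Tug1-/- MEFs, a change of -0.91. It stands alone in its locus, and its exons overlap no other annotated gene. With a pseudocount of 1 FPKM its change was -0.60. The other Hoxa and Hoxd genes of numbers 10 to 13, which also pattern the limb, had lower values in the knockout as well, but their changes were smaller or their levels under 1 FPKM. Hoxa13 had 0.942 and 0.574 FPKM, Hoxd12 had 0.310 and 0.134 FPKM, and Hoxd11 had 2.27 and 1.87 FPKM. Hoxa10 and Hoxa11 had changes of -0.31 and -0.32. These genes, and those named in the next paragraph, were chosen after their values had been seen.

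Just inside the limit lay Hoxa4, with 0.935 FPKM in wild-type and 1.45 FPKM in knockout MEFs. Its knockout value was 1.55 times the wild-type value, but its change with the pseudocount was 0.579 against a limit of 0.585. With a pseudocount of 0.01 FPKM, or with the totals of both genotypes set equal, it passed. Hoxa3 had 3.55 and 4.89 FPKM, a change of 0.45. On the other side, Hoxd8 had 5.68 and 3.89 FPKM, a change of -0.53. In the table, Hoxa4 and Hoxa3 share a locus of 59.5 kb with Hoxa2, Hoxa5, Hoxa6 and Hoxa7, and the sum of these 6 genes was 25.2 FPKM in wild-type and 29.7 FPKM in knockout MEFs.

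By paralog number, the anterior genes had positive and the posterior genes mostly negative changes in MEFs. All 6 anterior genes at level had a positive change, as did 9 of 14 central and 1 of 9 posterior genes, while 49.8% of all genes did. The medians were 0.17, 0.09 and -0.08. The posterior count depended on the scaling, since 4 of 9 posterior genes had a positive change and their median was -0.01 when the totals of both genotypes were set equal, a scaling under which 64.2% of all genes had a positive change. The exception among posterior genes in the values as deposited was Hoxc11, with 1.41 and 1.51 FPKM. Summed by number, the genes of group 13 had 4.09 FPKM in the wild type against 2.62 FPKM in knockout MEFs, and those of group 3 had 8.35 and 10.0 FPKM.

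By cluster, the Hoxd genes summed to 14.0 FPKM in wild-type and 10.5 FPKM in knockout MEFs, and their 4 members at level had a median change of -0.40. The 10 Hoxa genes at level had a median of 0.17, and the cluster summed to 47.2 and 48.9 FPKM. Within Hoxa the change as deposited went from positive to negative along the cluster: the 7 genes of numbers 1 to 7 had changes between 0.07 and 0.58, and the 3 genes of numbers 9 to 11 between -0.32 and -0.001. With equal totals, 8 of the 10 Hoxa genes had a positive and 2 a negative change. The Hoxb genes summed to 56.7 and 57.8 FPKM with a median of 0.03, and the Hoxc genes to 61.4 and 58.1 FPKM with a median of -0.04, which became 0.02 with equal totals.

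Other genes differed between the genotypes of the MEFs in the same range. All 7 fibroblast markers had lower values in the knockout as deposited and 6 of 7 with equal totals, with a summed level of 3979 FPKM in wild-type and 3569 FPKM in knockout and a median change of -0.31, and Lum, a matrix proteoglycan, was past the limit as deposited with 2.57 and 1.66 FPKM. All 5 smooth muscle markers had lower values as deposited and 4 of 5 with equal totals, with a median of -0.13 as deposited, and Des, the intermediate filament of muscle, had 30.7 and 19.2 FPKM. No fibroblast or smooth muscle marker was at 0. Their part in the values of the Hox genes was not tested.

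Among 26 other positional transcription factors of limb and trunk mesenchyme, 16 were at level in MEFs, 0 were past the limit with a higher and 2 with a lower value, and 12 of the 16 changes were negative, with a median of -0.19. The share of all genes past the limit with a lower value was 2.2% as deposited. With equal totals 9 of 16 were negative and 1, Tbx4, was past the limit. Tbx4, which is used in the hindlimb, had 1.45 FPKM in the wild type against 0.764 FPKM in knockout MEFs. Pitx1, another hindlimb factor, stayed inside the limit with 2.77 and 1.87 FPKM; it and Tbx5 were chosen after their values had been seen. Tbx5, the forelimb counterpart of Tbx4, was under 1 FPKM in both genotypes, with 0.650 and 0.584 FPKM.

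**Figure D3:**
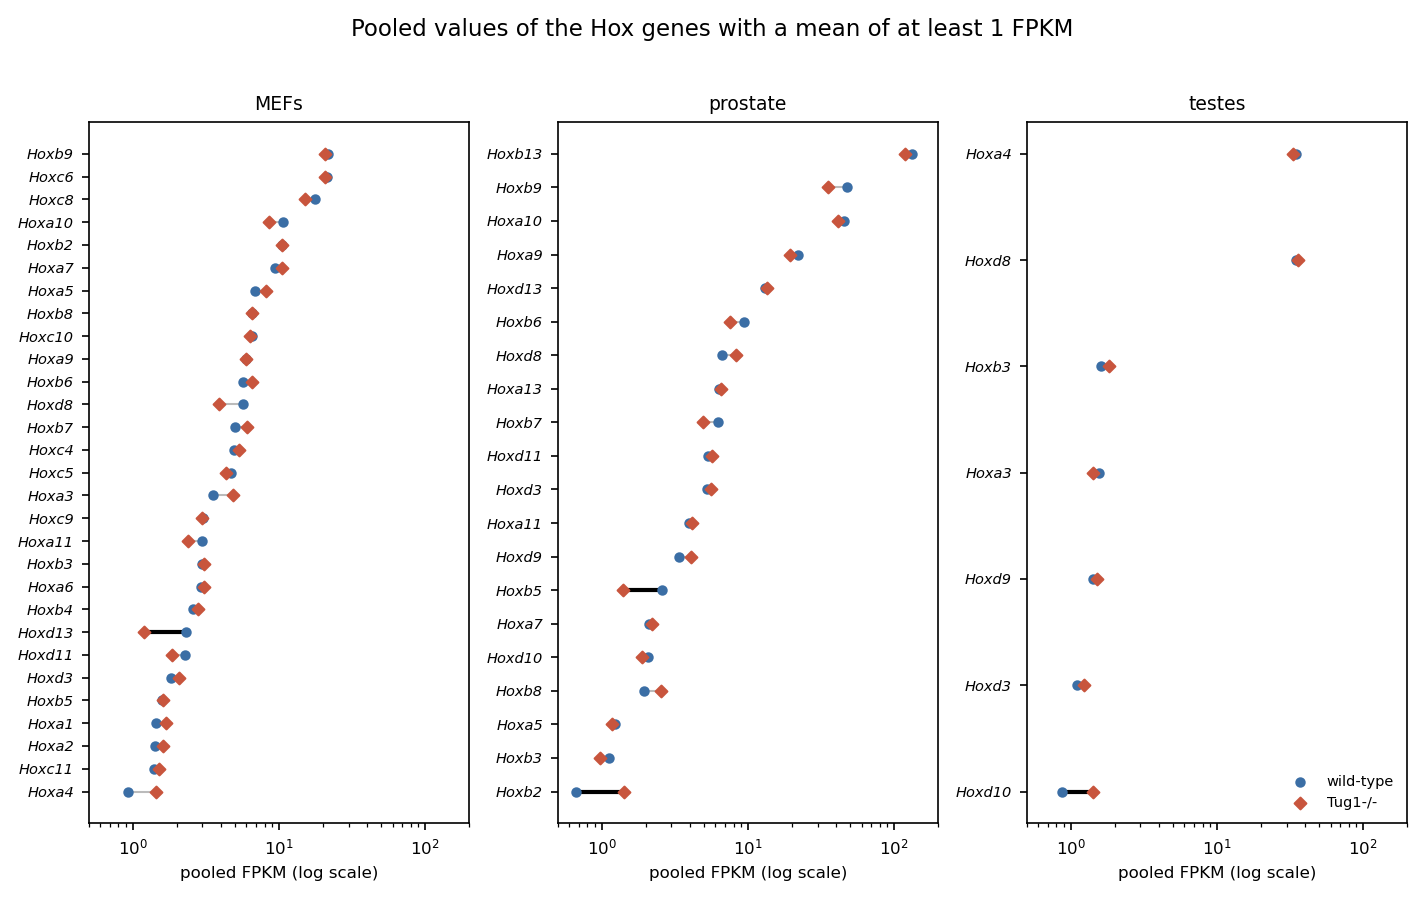
Pooled FPKM of the Hox genes with a mean of at least 1 FPKM in MEFs, prostate and testes, on a log scale. Circles are wild-type and diamonds Tug1-/- values, genes are ordered by the wild-type value, and black lines mark the 4 pairs past the limit. The pairs past the limit lie at the low end, between 0.672 and 2.57 FPKM, below the highest values of each tissue.

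Prostate had the highest summed Hox level, and most of it came from posterior genes. Hoxb13, a factor of prostate development and of the androgen response of prostate epithelium, had 132 FPKM in the wild type against 119 FPKM in Tug1-/- prostate. Hoxb9 followed with 47.8 and 35.3 FPKM, a change of -0.44, and Hoxa10, which is needed for the male accessory glands, had 45.6 and 41.7 FPKM. Hoxa9 with 22.0 and 19.4 FPKM and Hoxd13 with 13.2 and 13.4 FPKM came next. Posterior genes made up 87.7% of the summed Hox level in wild-type and 86.8% in knockout prostate, against 34.4% and 31.5% in MEFs. The genes of the Hoxc cluster were all at or under 0.029 FPKM, so that the 3 other clusters held nearly the whole sum, Hoxb with 62.9%, Hoxa with 25.8% and Hoxd with 11.3% of it in wild-type.

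Of the 20 Hox genes at level in prostate, 1 was past the limit with a higher and 1 with a lower value in the knockout, or 5% in each direction. Of all 12166 genes, 2.4% were past it with a higher and 0.682% with a lower value. Among genes of 1 to 5 FPKM, where both lie, these shares were 4.79% and 1.21%. Hoxb2, an anterior gene known from the hindbrain, had 0.672 FPKM in the wild type against 1.43 FPKM in Tug1-/- prostate, a change of 0.99. Hoxb5, a central gene known from the lung and gut, had 2.57 and 1.40 FPKM, a change of -0.83. Neither call held with a pseudocount of 1 FPKM, under which the changes were 0.54 and -0.57.

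Both genes share a locus with a neighbour. Hoxb2 and Hoxb3 lie in a locus of 31.4 kb with 2 other genes, and 27.3% of the exonic bases of Hoxb2 and 52.9% of those of Hoxb3 overlap the antisense gene Hoxb3os. Hoxb3os had 3.18 FPKM in the wild type against 2.00 FPKM in knockout prostate, a change of -0.64, in the other direction from Hoxb2. Hoxb3 itself had 1.13 and 0.981 FPKM, and Hoxb2 and Hoxb3 summed to 1.80 and 2.41 FPKM, a change of 0.40 that lies inside the limit. Hoxb5 and Hoxb6 lie in a locus of 15.9 kb with 1 other gene. Of the exonic bases of Hoxb5, 3.59% overlap the antisense gene Hoxb5os. Hoxb5 and Hoxb6 summed to 12.1 and 8.91 FPKM, a change of -0.43, also inside the limit. How the reads of a locus were divided was not tested.

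On 1 side of Hoxb5, Hoxb6 and Hoxb7 had lower values in the knockout as well. Hoxb6 had 9.48 and 7.51 FPKM and Hoxb7 had 6.22 and 4.95 FPKM. Hoxb8, next to them, went the other way with 1.96 and 2.55 FPKM. Hoxb4, on the other side of Hoxb5, had 0.636 and 0.674 FPKM, at a mean under 1 FPKM. Over the Hoxb cluster, 6 of 8 genes at level had a negative change, with a median of -0.25, and the cluster summed to 203 FPKM in wild-type and 174 FPKM in knockout. The Hoxd cluster summed to 36.4 and 39.5 FPKM, and 5 of its 6 genes at level had a positive change with a median of 0.09. Of all genes in prostate, 39.1% had a positive change as deposited and 56.7% with equal totals, and both counts of Hox genes were the same under either rescaling. In Hoxa, 3 of 6 changes were positive, and its median of -0.01 became 0.05 with equal totals.

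The pooled prostate values of both genotypes also differed in the markers of a neighbouring gland. All 5 seminal vesicle genes were at level, with a summed level of 9698 FPKM in wild-type and 19480 FPKM in knockout, and 2 were past the limit with a higher value. Svs5, a seminal vesicle secretory protein, had 4183 and 11507 FPKM, and Pate4 had 951 and 2925 FPKM, while Svs6 had 29.0 and 19.6 FPKM. Emx2, a homeobox gene of the urogenital ducts, had 2.11 FPKM in the wild type against 5.89 FPKM in the knockout and was the member of the positional list past the limit. The 4 epithelial markers summed to 1067 and 968 FPKM, and the 5 smooth muscle markers to 2467 and 2456 FPKM. The 4 prostate markers summed to 25514 and 21702 FPKM, nearly all of it Pbsn, while Msmb was past the limit with a higher value, from 4.58 to 7.90 FPKM. Of the 7 fibroblast markers 6 had a positive change, with a median of 0.24 and a sum of 231 and 280 FPKM, and all 7 did under either rescaling; Lum was past the limit with 4.98 and 8.82 FPKM. The 3 macrophage markers all had a positive change, with a median of 0.32 and a sum of 11.4 and 14.4 FPKM, and Emr1 was past the limit with 1.76 and 2.84 FPKM. Of 11 epididymis markers 2 were at level, 6 were listed at 0 in both genotypes, and the list summed to 31.0 and 97.3 FPKM, nearly all of it Defb42. The part of these markers in the values of the Hox genes was not tested.

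**Figure D4:**
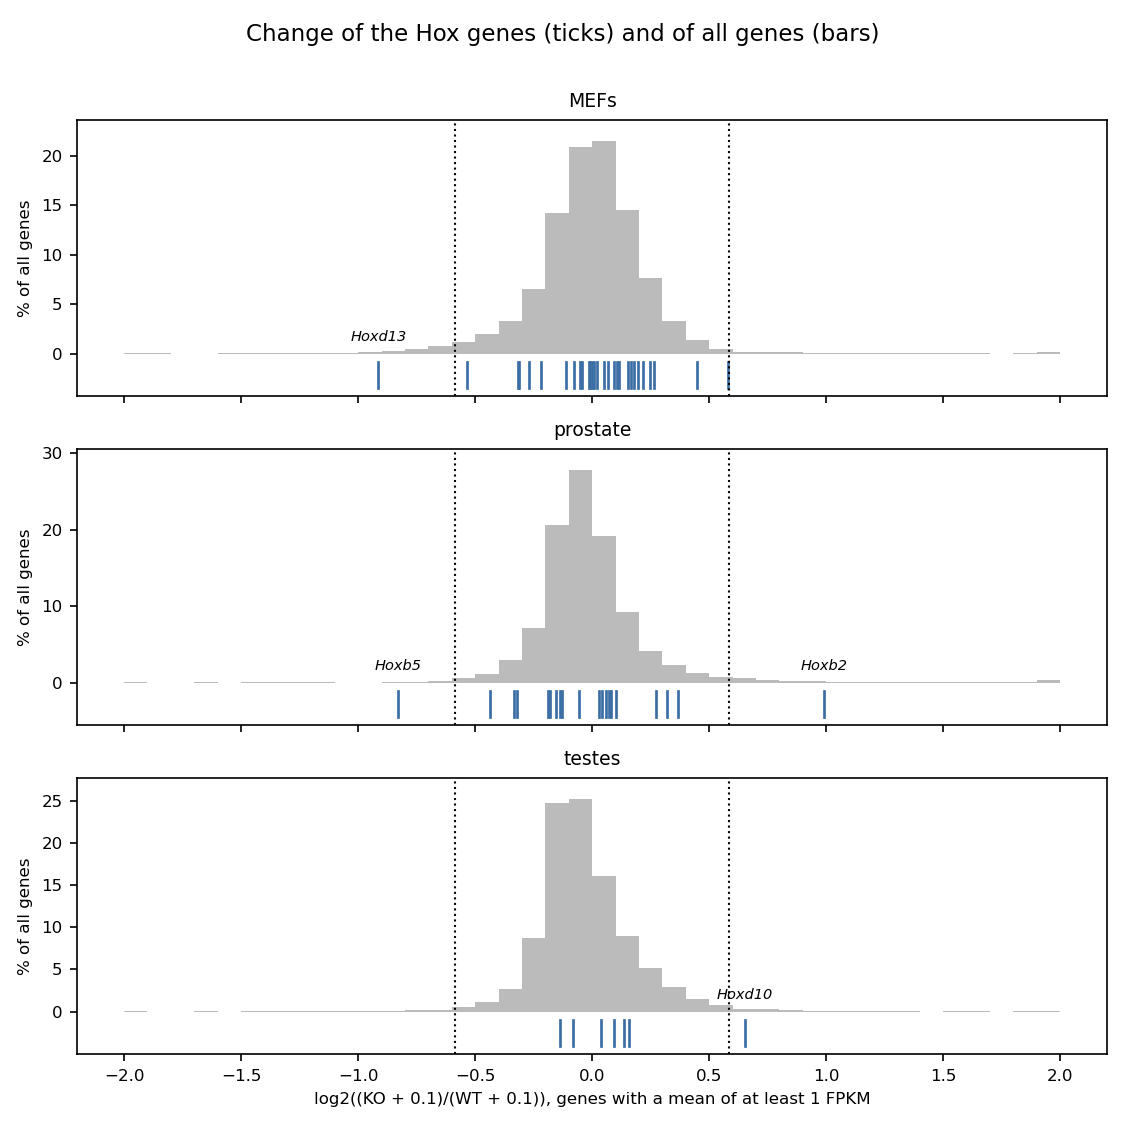
Change of the Hox genes (ticks under the bars) and of all genes (bars, percent of genes per bin) with a mean of at least 1 FPKM in MEFs, prostate and testes, on the log2((KO + 0.1)/(WT + 0.1)) scale; the outermost bins also hold the genes beyond them. Dotted lines mark the limit of 1.5 times. Most Hox genes lie under the bulk of all genes, and the 4 named ones lie outside the lines.

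In testes, Hoxa4 and Hoxd8 held 84.4% of the summed Hox level of the wild type. Hoxa4, a central gene long known for its use in male germ cells, had 35.0 FPKM in the wild type against 33.1 FPKM in Tug1-/- testes, a change of -0.08. Of the exonic bases of Hoxa4, 16% overlap the antisense gene Gm29430, which has no values here. Hoxd8 had 34.8 and 35.7 FPKM, a change of 0.04. The other 36 genes were under 2 FPKM in both genotypes, Hoxb3 leading them with 1.62 and 1.82 FPKM, and 31 of the 38 had a mean under 1 FPKM.

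Of the 7 Hox genes at level in testes, 1 was past the limit with a higher and 0 with a lower value in the knockout. Of all 15143 genes, 1.17% were past it with a higher and 0.753% with a lower value, and 2.56% and 1.8% of those of 1 to 5 FPKM. The member past the limit was Hoxd10, a posterior gene of the limb and the spinal cord, with 0.871 FPKM in the wild type against 1.43 FPKM in Tug1-/- testes, a change of 0.65. With a pseudocount of 1 FPKM the change was 0.38 and the call was lost. Hoxd11, which shares its locus, had 0.590 and 0.316 FPKM, in the other direction, and both genes summed to 1.46 and 1.74 FPKM, a change of 0.24. The same-strand gene Gm28309, which has no values here, overlaps 5.73% of the exonic bases of Hoxd10 and 10.8% of those of Hoxd11. How the reads of the locus of Hoxd10 and Hoxd11 were divided was not tested.

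The 7 genes at level had a median change of 0.09 in testes, while that of all genes was -0.06, and 5 of the 7 changes were positive against 36.4% of all genes. With equal totals 6 of 7 were positive against 61.3% of all genes, and with the median ratio 5 of 7 against 50%. The members' median stayed positive under both rescalings, with 0.19 and 0.15, and became -0.02 when 2 FPKM were required, since Hoxa4 and Hoxd8 alone then remained. Somatic markers of the testis had higher values in the knockout: the 5 Sertoli cell genes summed to 187 FPKM in wild-type and 230 FPKM in knockout with a median change of 0.28, and the 4 Leydig cell genes to 896 and 1300 FPKM with a median of 0.43. The 4 spermatid genes summed to 38923 and 33343 FPKM, with a median of -0.21, and the 3 spermatocyte genes to 349 and 354 FPKM. None of these 16 genes was at 0, and their part in the values of the Hox genes was not tested.

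**Figure D5:**
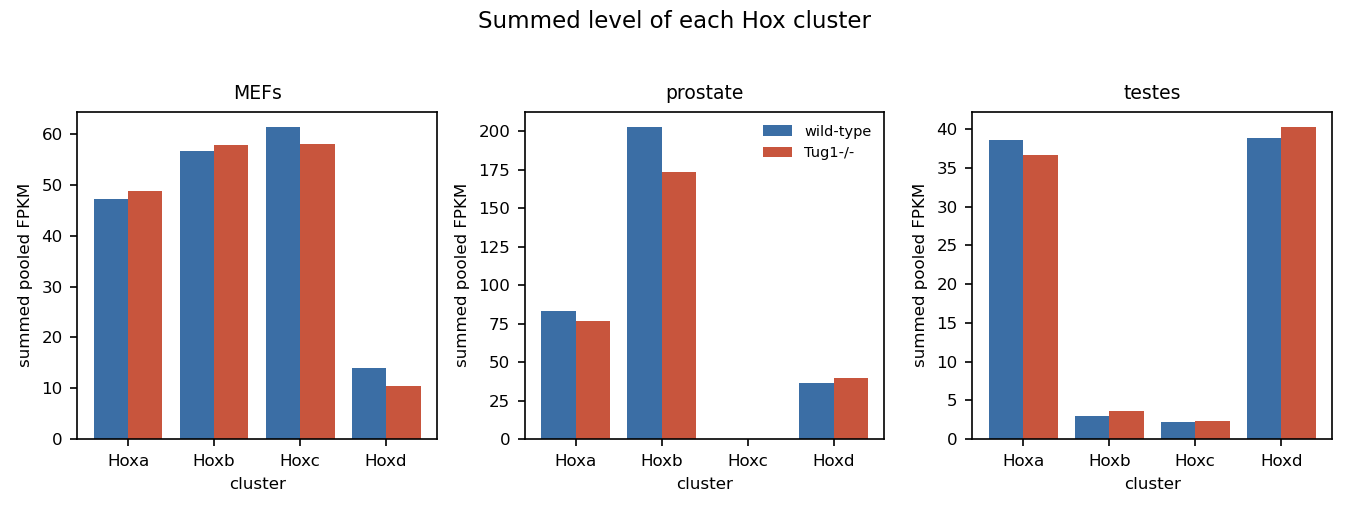
Summed pooled FPKM of the genes of each Hox cluster in wild-type and Tug1-/- MEFs, prostate and testes, with 1 bar per genotype and an axis from 0 for each tissue. In MEFs the Hoxd sum was 14.0 in wild-type and 10.5 in knockout, in prostate the Hoxb sum was 203 and 174 and Hoxc was near 0, and in testes Hoxa and Hoxd were close to each other.

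In spleen, the genes at level were Hoxa5, with 1.56 FPKM in the wild type against 1.03 FPKM in Tug1-/- spleen, Hoxb7 with 1.19 FPKM in both, and Hoxb4, known from blood stem cells, with 1.02 and 1.10 FPKM. None of these 3 was past the limit in either direction, where 6.02% of all genes were, and Hoxa5 lay nearest to it with a change of -0.56. With a pseudocount of 0.01 FPKM the change of Hoxa5 was -0.595, past the limit. With equal totals it was -0.5851, just past the limit of 0.5850. In heart, Hoxb2 was at level with 1.08 and 0.984 FPKM, inside a limit that 2.32% of all genes passed. In liver the highest wild-type value was that of Hoxa5 with 0.454 FPKM, and in eyes that of Hoxd8 with 0.161 FPKM. In these 4 tissues the values did not allow a comparison of genotypes for most Hox genes. Hoxa4, abundant in testes, had between 0.00459 and 0.394 FPKM in the wild type of these tissues.

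The values of the genes past the limit in 1 tissue are given here for the others. Hoxd13, lower in knockout MEFs, had 13.2 and 13.4 FPKM in prostate. Hoxb2 had 10.4 and 10.5 FPKM and Hoxb5 had 1.60 and 1.62 FPKM in MEFs, against changes past the limit in prostate. Hoxd10 had 2.09 and 1.89 FPKM in prostate and 0.632 and 0.534 FPKM in MEFs. The difference of these changes between tissues was not tested.

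Hox proteins bind DNA together with the cofactors of the Pbx, Meis and Pknox families. Of 9 cofactor genes 8 were at level in each of MEFs, prostate and testes, and 0 were past the limit in any of them as deposited. With equal totals, Pbx4 reached the level in MEFs and was past the limit there with a higher value, from 0.786 and 1.18 FPKM as deposited. Their summed level was 116 and 106 FPKM in MEFs, 68.7 and 67.5 FPKM in prostate, and 200 and 184 FPKM in testes. All 13 chromatin regulators of Hox genes, Polycomb and Trithorax members among them, were at level in these tissues and 0 were past the limit, with median changes of 0.14, -0.02 and 0.02; that in prostate became 0.05 with equal totals. The 8 neighbours of the clusters and ParaHox genes, such as Evx1 and Cdx2, were under 1 FPKM in all 3.

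Retinoic acid activates Hox genes in the embryo. Of 14 genes of its pathway, 10 were at level in MEFs, and 2 were past the limit with a lower and 0 with a higher value in the knockout. Crabp2, a carrier of retinoic acid into the nucleus, had 17.2 and 5.70 FPKM, and Dhrs3, an enzyme that limits retinaldehyde, had 21.5 and 12.6 FPKM. In prostate 9 were at level, and Crabp2 was past the limit with 1.21 and 1.99 FPKM. In testes 10 were at level, and 1 was past it with a higher value. In MEFs, 2.2% of all genes were past the limit with a lower and 0.975% with a higher value. With a higher value, 2.4% of all genes passed it in prostate and 1.17% in testes. The median changes of the list were -0.29 in MEFs, 0.21 in prostate and 0.20 in testes. The part of these genes in the values of the Hox genes was not tested.

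The clusters also hold noncoding genes. Of 4 such genes found by name, Hoxa11os, antisense to Hoxa11, had 141 FPKM in the wild type against 118 FPKM in Tug1-/- prostate and 4.59 and 3.47 FPKM in MEFs. Hoxa11 itself had 3.95 and 4.16 FPKM in prostate, and 35% of its exonic bases overlap Hoxa11os. Hoxb3os had 6.14 and 6.04 FPKM in MEFs and 1.96 and 1.70 FPKM in testes, and in prostate it was the member of this list past the limit, though not with equal totals. The lncRNAs Hottip, at the posterior end of Hoxa, and Hotair, inside Hoxc, were under 1 FPKM in MEFs, prostate and testes.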

How the data were processed

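Poly-A RNA of 42 samples from 7 tissues was sequenced as paired-end reads with an unstranded library kit. The submitters' processing notes name CASAVA 1.8.2, TopHat2 and Cuffdiff with the mouse build mm10, which is GRCm38. The deposited table gives 1 value per gene, genotype and tissue, in which the replicates are combined. The authors computed these FPKM values before the table was deposited; the unit follows from the layout of the table, since its header names none. It also holds the authors' own log2 fold change, test statistic, p-value, q-value and call for each gene, which were not used here. The 2 value names of another tissue, which match no sample described here, were left out. With no counts and no value per sample, depth is unknown and the number of samples limits the precision.

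Over 26653 genes in each tissue, the change was taken on a log2 scale as (KO + 0.1)/(WT + 0.1). Genes with a mean of both genotypes of at least 1 FPKM and a change of more than 1.5 times were counted as past the limit, and the same share over all genes is the background. No test was made. The members, lists and rules were chosen with earlier results of these data known. Named in MEFs, prostate and testes were every Hox gene past the limit and the 3 with the highest wild-type value, in other tissues the 3 highest at level and any past the limit, and of related lists the members past the limit, some of which are not reported here by name. Alternatives were pseudocounts of 1 and 0.01 FPKM, levels of 0.5 and 2 FPKM or none, a limit of 2 times, and rescaling to equal totals or by the median ratio. The counting steps recovered changes planted in simulated data. These changes were well beyond the limit and in genes at higher levels than the Hox genes past it. Calls near the limit or at low levels were not checked in this way.

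Homeobox sequences and coordinates were read from GENCODE vM21 on GRCm38, in which all 38 symbols were found; gene identifiers of the table were not needed for this match. Python 3.11.15 was used with pandas 2.3.3, numpy 2.4.6, Biopython 1.88 and matplotlib 3.10.9.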

Additional observations from a re-analysis of the deposited data

How the results depend on the processing

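The counts of Hox genes past the limit rest on 1 or 2 genes near 1 to 2.6 FPKM per tissue, so each moved with the settings. In MEFs the count with a higher value was 1 in place of 0 with a pseudocount of 0.01 FPKM and with equal totals, the added gene being Hoxa4. The count with a lower value was 2 with a level of at least 0.5 FPKM and 3 with no level filter, since more genes then entered, and 0 with a level of at least 2 FPKM or a limit of 2 times. In prostate both counts, 1 in each direction, were 0 with a pseudocount of 1 FPKM, with a level of at least 2 FPKM and with a limit of 2 times. In testes the count with a higher value, 1 as reported, was 0 under the same 3 settings, and the count with a lower value was 1 with no level filter. The median change in testes, 0.09, was -0.021 with a level of at least 2 FPKM, at which 2 Hox genes remained. In spleen, Hoxa5 was past the limit with a pseudocount of 0.01 FPKM and with equal totals.

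With a pseudocount of 1 FPKM the change was -0.60 for Hoxd13 in MEFs, 0.54 for Hoxb2 and -0.57 for Hoxb5 in prostate, 0.38 for Hoxd10 in testes and -0.33 for Hoxa5 in spleen; of the 68 values of named genes under the alternatives the other 63 moved by no more than 0.1 (log2), and no value past the limit changed its sign. Setting the totals of both genotypes equal moved the median change of all genes by 0.06 in MEFs, 0.06 in prostate and 0.10 in testes. The median change of the Hox genes in prostate, -0.01, was 0.05 with equal totals and 0.02 with the median ratio.

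No paired analysis was possible because the table holds pooled values. For the same reason the fits without each replicate were not run, and depth is unknown.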

Other observations

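Further genes lie inside the Hox clusters by the coordinates of the table and were chosen here by position, after their values had been seen. 1700109F18Rik, in the Hoxd cluster, had 95.9 FPKM in the wild type against 90.9 FPKM in the Tug1-/- testes, 10.3 and 7.60 FPKM in prostate, and 1.22 and 1.13 FPKM in MEFs, so that its level in testes was above that of every Hox gene there. Haglr, also in Hoxd, had 16.5 and 17.0 FPKM in testes. Gm53, in the Hoxb cluster, had 73.4 and 59.2 FPKM in prostate and 15.0 and 15.6 FPKM in MEFs. 0610040B09Rik, in the Hoxb cluster on the strand opposite to the Hox genes, had 3.56 and 2.19 FPKM in MEFs, a change of -0.67, 0.725 and 1.25 FPKM in prostate, a change of 0.71 in the other direction at a mean under 1 FPKM, and 5.30 and 5.74 FPKM in testes. These values have no error between samples and were not tested.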
